A study of Mus musculus with 6 samples.

Results

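The genes described here are 10 markers of adult neurogenesis and of dividing cells, namely Mki67, Top2a, Eomes, Neurod1, Sox4, Sox11, Dcx, Igfbpl1, Tubb3 and Stmn2. They were taken by name from the 28324 genes of a table of unique molecular identifier (UMI) counts, where each UMI stands for 1 captured transcript. All 10 were in the table. The table came from Drop-Seq, a droplet method that reads the 3' ends of transcripts from single dissociated cells, applied to the hippocampus of 6 mice. All 6 mice carried the amyloid transgenes of the strain B6.Cg-Tg(APPswe,PSEN1dE9)85Dbo, also called APP/PS1, and their age is given by the labels as 10 weeks, so no group without the transgenes enters these comparisons. In 3 mice the treatment was an antisense oligonucleotide (ASO) and in 3 it was phosphate buffered saline (PBS), not a control oligonucleotide. IDOL, the ubiquitin ligase encoded by Mylip, is the target named by the title. Each cell carried a class name given by the authors, and 1 of the 17 classes was named Neurogenesis.

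After removal of called doublets, 12616 of 12823 cells were kept. The mice contributed between 1751 and 2822 cells and between 2005768 and 3150332 UMIs each, with a median of 1027 to 1096 UMIs per cell. Of 12811 distinct cell barcodes, 8 were seen in more than 1 mouse. Mylip reached 60.2, 70.0 and 74.8 CPM (UMIs of a gene per 1000000 UMIs) under PBS and 38.7, 30.2 and 33.9 CPM under ASO, so the groups did not overlap and the labels matched the targeted gene. Ordered by the ratio of the mitochondrial transcripts mt-Rnr2 to mt-Cytb, neighbouring mice formed pairs that each held 1 PBS and 1 ASO mouse. The ratios (PBS, then ASO) were 12.9 and 10.9, 7.16 and 4.49, and 16.8 and 15.9, without wide gaps between the pairs. The choroid plexus transcript Ttr was at 5637 and 4806, at 6303 and 4067, and at 1060 and 9219 CPM in the same pairs. By Ttr the mice of the last pair were thus not alike.

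In the dentate gyrus, new granule neurons arise in adult rodents from radial glia-like stem cells. These give rise to dividing intermediate progenitors, then to migrating neuroblasts and immature neurons. Mki67 encodes the proliferation marker Ki-67 and Top2a encodes a topoisomerase that separates DNA strands before mitosis, and both are transcribed mainly in the later part of the cell cycle in any dividing cell type. Eomes (Tbr2) and Neurod1 are transcription factors of intermediate progenitors and early neurons, Sox4 and Sox11 are transcription factors of early neuronal differentiation, and Dcx encodes doublecortin, a microtubule-binding protein of migrating neuroblasts. Igfbpl1 is a secreted insulin-like growth factor binding protein relative found in neuroblasts, Tubb3 encodes a neuronal beta-tubulin, and Stmn2 encodes a stathmin that acts on microtubules in growing neurites.

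The members lay at chr7:135689784-135716361 (Mki67), chr11:98992943-99024189 (Top2a), chr2:79452521-79456751 (Neurod1), chr13:28948919-28953713 (Sox4), chr12:27334264-27342574 (Sox11), chrX:143855842-143933311 (Dcx) and chr4:45809468-45826923 (Igfbpl1) on the minus strand of GRCm38. Eomes at chr9:118478212-118486132, Tubb3 at chr8:123411424-123422015 and Stmn2 at chr3:8509360-8561606 lay on the plus strand. Neurod1 shared sequence with Cerkl and Tubb3 with Gm20388 on the same strand in the GENCODE annotation. Sox4, Eomes, Mki67 and Top2a overlapped a gene model on the opposite strand, and Top2a also a small one on its own strand. Whether the counting used strand is not given in the sources used here, so UMIs of these genes and of their overlapping partners could not be told apart.

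Within class Neurogenesis, 13 of the 21 cells with Mki67 or Top2a had both and none had Neurod1, while over all kept cells 20 of 105 had both. Sequence from before the start of these 3 genes is therefore shown. Windows of 250 bases were taken from the RefSeq promoter table of GRCm38.p6, which held 8 of the 10 members. The RefSeq start of Neurod1 lies inside the GENCODE gene given above, and only the 135 bases of its window that lie outside that gene are printed. The sequences are written 5′ to 3′ on the gene's strand, and capitals mark the letters CCAAT and TTTGAA on either strand (ATTGG and TTCAAA when read from the other one). These letters are core motifs of cell cycle promoters, where they are known as the CCAAT box and the cell cycle genes homology region. The 2 motifs do not overlap each other in these sequences.
Mki67, chr7:135716380-135716629, minus strand: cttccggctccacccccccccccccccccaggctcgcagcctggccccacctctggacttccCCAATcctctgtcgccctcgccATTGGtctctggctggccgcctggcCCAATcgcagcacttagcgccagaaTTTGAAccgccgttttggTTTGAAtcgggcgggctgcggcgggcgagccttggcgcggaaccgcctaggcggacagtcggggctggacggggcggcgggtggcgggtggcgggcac
Top2a, chr11:99024190-99024439, minus strand: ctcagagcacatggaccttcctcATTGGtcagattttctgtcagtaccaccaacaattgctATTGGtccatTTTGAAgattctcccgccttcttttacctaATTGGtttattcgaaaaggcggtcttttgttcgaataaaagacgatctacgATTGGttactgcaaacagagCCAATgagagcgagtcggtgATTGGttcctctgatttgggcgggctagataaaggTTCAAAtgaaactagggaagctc
Neurod1, chr2:79456752-79456886, minus strand: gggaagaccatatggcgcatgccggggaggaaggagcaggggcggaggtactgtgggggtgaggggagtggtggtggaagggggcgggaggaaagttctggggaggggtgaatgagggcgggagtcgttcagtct
The Mki67 sequence held 3 CCAAT matches and 2 TTTGAA matches, and the Top2a sequence held 6 and 2. The whole Neurod1 window held neither set of letters. Of the 32851 promoters in the table, 33.8% held CCAAT, 16.0% held TTTGAA and 5.55% held both within these 250 bases. Sox11 also held both, with 1 match of each, and Dcx, Sox4, Eomes and Tubb3 held CCAAT only (in Dcx in the first of 2 listed starts). A match describes the letters in this window and is not a measured binding site.

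Class Neurogenesis held 43 cells, of which 40 were kept and 3 were called doublets. The kept cells came to 6, 2 and 13 in the PBS mice and to 8, 9 and 2 in the ASO mice, with a median of 1077 UMIs. Since the authors made the classes from these same counts, the high level of a member in the class is a description and was not tested. Top2a was at 1423 CPM in the class (67 UMIs in 19 of 40 cells, 47.5% with an exact 95% binomial interval of 31.5 to 63.9%). Mki67 was at 956 CPM (45 UMIs in 15 cells). Neurod1 followed at 616 CPM (29 UMIs in 9 cells), Igfbpl1 at 382 CPM (18 UMIs in 11 cells), Sox4 at 318 CPM (15 UMIs in 9 cells), Tubb3 at 276 CPM (13 UMIs in 9 cells), Stmn2 at 255 CPM (12 UMIs in 7 cells), Dcx at 212 CPM (10 UMIs in 7 cells), Eomes at 149 CPM (7 UMIs in 5 cells) and Sox11 at 42.5 CPM (2 UMIs in 2 cells). With so few UMIs the neighbours in this order were not separated beyond counting error, and binomial intervals cover counting error only. In 8 of the 10 genes the class had the highest CPM of the 17, and the exceptions were Tubb3 and Stmn2, which were highest in class Neuron_Subiculum_Entorhinal. For Sox11 the rank rests on 2 UMIs, and its 42.5 CPM is under the 63.7 CPM that 3 counts would give in this class.

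By these UMIs the cells of the class fell into 2 kinds. A UMI of Mki67 or Top2a was present in 21 of the 40 cells, and a UMI of Dcx, Sox11, Igfbpl1, Eomes or Neurod1 was present in 16 others. No cell had both (0 of 40, which by a limit of 3 counts allows up to 7.50% of cells with both UMIs), and 3 cells had neither. At this depth a cell without a UMI of a gene may still have expressed it. The split was made after these values were seen. Among the 21 cells, 13 had UMIs of both Mki67 and Top2a, 6 of Top2a alone and 2 of Mki67 alone, with up to 6 UMIs of Mki67 and 10 of Top2a in a cell. They held 1 UMI of Sox4, 3 of Tubb3 and none of Stmn2. In the 16 cells Neurod1 reached 10 UMIs in 1 cell, 6 of the 7 Dcx-positive cells also had Neurod1, and Sox4 contributed 14 UMIs and Tubb3 10. The 3 removed cells were all of this second kind, so keeping doublets gave 21 and 19 cells and again none with both. Median depth was 1072 UMIs in the cells with Mki67 or Top2a and 1135 in the cells with a neuroblast gene.

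**Figure D1:**
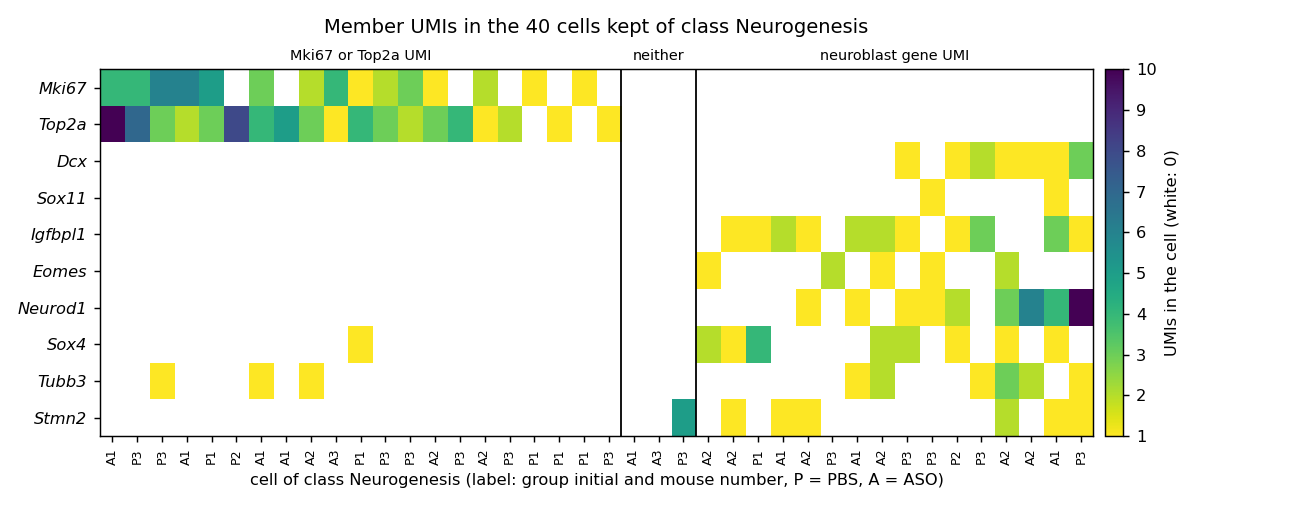
UMIs of each member (rows) in each of the 40 kept cells of class Neurogenesis (columns, labelled by group and mouse), where colour gives the number of UMIs in the cell and white is 0. The 21 cells with Mki67 or Top2a on the left hold no UMI of Dcx, Sox11, Igfbpl1, Eomes or Neurod1, and the 16 cells on the right hold no UMI of Mki67 or Top2a.

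Genes that the split did not use separated in the same way, again as a description. A list of 36 genes of G2 and M phase that leaves out Mki67 and Top2a was at 23951 CPM in the 21 cells, with 8 to 56 UMIs per cell and a median of 28, and at 3097 CPM in the 16 cells, with 0 to 9 UMIs per cell and a median of 3. Hmgb2, a chromatin protein of dividing cells, had 63 of its 64 UMIs in the 21 cells, and Cenpf, a kinetochore protein, had all 43. Hist1h2ap, a replication-dependent histone, had 61 of 64, while the tubulin Tubb5 was spread over both kinds with 45 and 26 UMIs. A list of 25 S phase genes was at 3826 CPM in the 21 cells and at 507 CPM in the 16, with the replication clamp Pcna at 16 and 5 UMIs. A list of 42 genes of neuroblasts and immature neurons without the members was at 5203 CPM in the 21 cells and at 21281 CPM in the 16. Its genes with most UMIs were the tubulin Tuba1a (29 and 93 UMIs), Stmn1 (25 and 31), the tubulin Tubb2b (7 and 41) and Ccnd2 (14 and 14). Of these, Stmn1 and Ccnd2 were spread over both kinds. A list of 19 genes of dentate granule neurons was low in both kinds, at 536 CPM in the 21 cells (14 UMIs) and 1182 CPM in the 16 (21 UMIs), against 6653 CPM in class Neuron_Dentate. Prox1, the transcription factor of dentate granule neurons, gave most of the latter, with 2 UMIs in the 21 cells and 15 UMIs in 9 of the 16. The others were at 3 UMIs or fewer in either kind, such as Ncdn (3 and 2 UMIs) and C1ql3 (2 and 0 UMIs), and the mature granule neuron gene Calb1 was at 0 in both. Of 20 genes of radial glia-like stem cells 13 had a UMI in the class. Fabp7 (22 and 1 UMIs), Slc1a3 (10 and 1) and Sox2 (6 and 1) lay mostly in the 21 cells, and Emx2 (0 and 7) in the 16. Fabp7, Slc1a3 and Sox2 were at 842, 383 and 230 CPM in the 21 cells. They were also at 431, 369 and 247 CPM in class Polydendrocyte (oligodendrocyte precursors).

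Markers of oligodendrocyte precursors, the main dividing glial cells of the adult brain, were present in most of the cells with Mki67 or Top2a. A list of 7 such markers had a UMI in 14 of the 21 cells (84 UMIs, 3214 CPM) and in 3 of the 16 neuroblast cells (5 UMIs, 282 CPM). The class Polydendrocyte, another name for these precursors, was at 6973 CPM and class Neuron_Dentate at 118 CPM, where 12.9% of cells had a UMI of the list. Olig1 was present in 13 of the 21 cells, Pdgfra, the growth factor receptor that defines these precursors, in 11 with 25 UMIs, and Vcan in 10. Cspg4 was present in 4 and Olig2 in 4, Tnr had 1 UMI, and C1ql1 was at 0. In the 14 cells the list had a median of 6 UMIs and up to 15 in a cell. The 7 cells without a precursor marker held 14 UMIs of Mki67 and 17 of Top2a. In a look at immune genes chosen after their values were seen, 3 of these 7 cells had UMIs of the leukocyte gene Ptprc, 2 had UMIs of the T cell genes Cd3d or Cd3g, and 1 cell held all 43 UMIs of the antigen presentation gene H2-Ab1 in the class. Some cells had more than 1 of these genes, and 4 of the 7 cells had any of them. None of these genes had a UMI in the 14 cells with a precursor marker or in the 16 neuroblast cells.

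**Figure D2:**
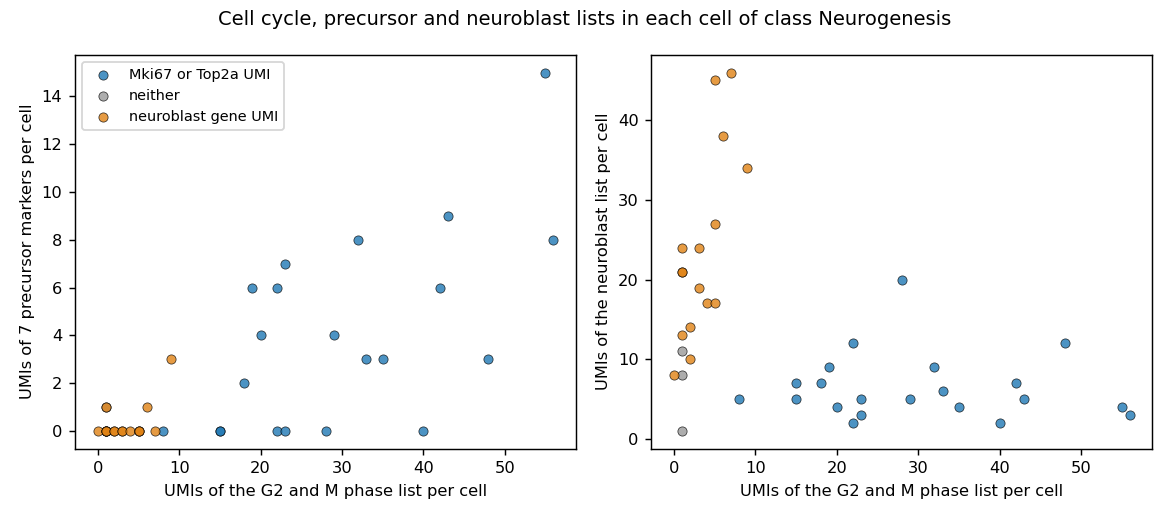
Each point is 1 kept cell of class Neurogenesis, placed by its UMIs of the G2 and M phase list (both horizontal axes) and by its UMIs of 7 oligodendrocyte precursor markers (left) or of the neuroblast list (right). Cells with Mki67 or Top2a lie between 8 and 56 UMIs of the cell cycle list and reach 15 precursor UMIs, and cells with a neuroblast gene stay at 9 or fewer and at 3 or fewer.

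The genes other than members with the highest ratio of CPM in the class to CPM in all other cells were Casc5 (127-fold), Cdca8 (122-fold), Cenpf (99.5-fold), Hist1h2ap, Tpx2, Cenpe, Prc1, Hmgb2, H2-Ab1 and Smc2 (15.8-fold). For Casc5, Cdca8, Cenpf, Tpx2, Cenpe and Prc1, all of which act in chromosome segregation or cytokinesis, every UMI in the class came from the 21 cells. H2-Ab1 stood in this list through 1 cell. Across the 17 classes, log2(CPM + 1) of Mki67 was most like that of Ect2 (Pearson r = 0.90) and that of Top2a most like those of I830077J02Rik and Casc5 (r = 0.86 and 0.85). Dcx was most like Ptpn5 (r = 0.93), and Igfbpl1 was most like Cenpf (r = 0.85), although Cenpf and Igfbpl1 had no cell kind in common within class Neurogenesis. These correlations are over 17 classes that share libraries, among 14416 genes with at least 50 UMIs, and are given as a description.

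**Figure D3:**
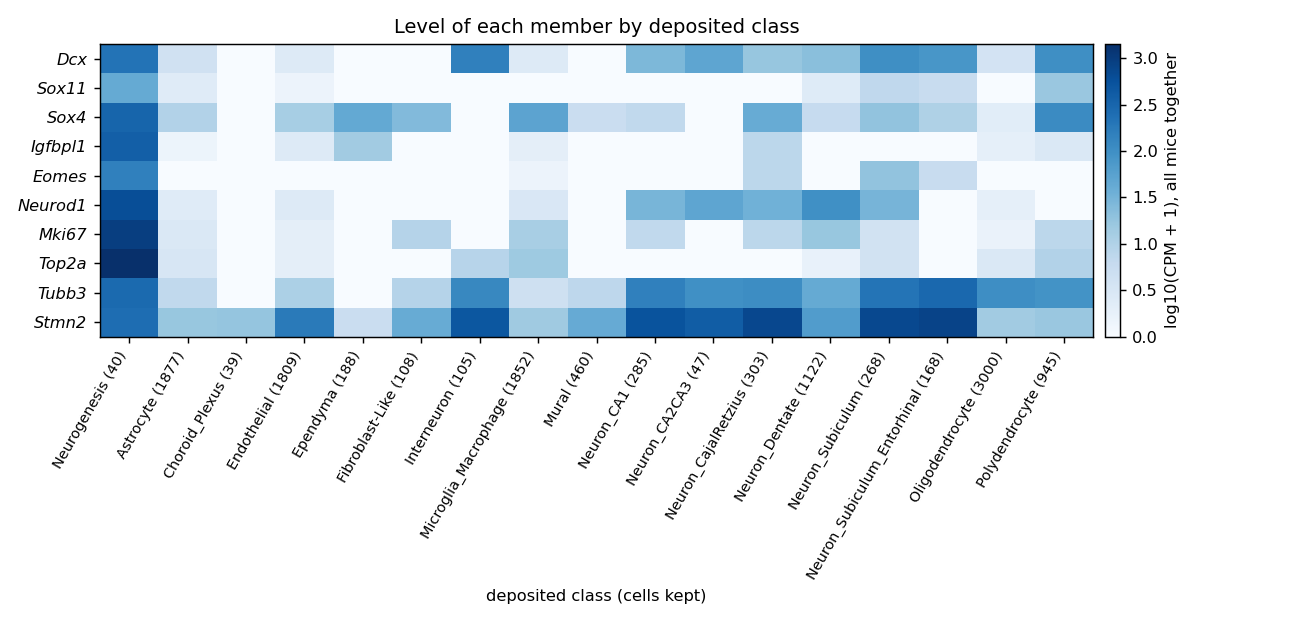
Level of each member (rows) in each of the 17 deposited classes (columns, with the number of kept cells), as log10 of CPM + 1 over all 6 mice. Class Neurogenesis on the left is darkest for all members but Tubb3 and Stmn2, for Sox11 on 2 UMIs only. Dcx, Sox4, Tubb3 and Stmn2 are also dark in several larger classes.

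Since class Neurogenesis is small, most cells with a UMI of these genes lay elsewhere. It held 11 of 26 cells with Igfbpl1 (42.3%), 5 of 11 with Eomes (45.5%), 19 of 54 with Top2a (35.2%) and 15 of 71 with Mki67 (21.1%). It held only 2 of 25 cells with Sox11, 9 of 171 with Neurod1, 9 of 298 with Sox4, 7 of 210 with Dcx, 9 of 691 with Tubb3 and 7 of 1016 with Stmn2. Of the 12616 cells, 40 had UMIs of at least 3 members, and 16 of these were in the class. All 6 cells with at least 4 members were in it.

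Outside the class, cells with Mki67 or Top2a were most frequent in Microglia_Macrophage (24) and Neuron_Dentate (22), followed by Polydendrocyte and Astrocyte (9 each, with no cell of Astrocyte holding both). Among 1852 cells of class Microglia_Macrophage, 16 had Mki67 and 13 had Top2a, 5 of them both. The 24 cells with either were at 7279 CPM of the G2 and M phase list against 762 CPM in the other 1828 cells, and at 11653 CPM of 7 microglia markers against 14409 CPM. In class Polydendrocyte 9 of 945 cells had either gene, 2 had both, and the cell cycle list was at 2909 CPM in the 9 cells against 773 CPM in the rest. In class Neuron_Dentate 21 of 1122 cells had Mki67 (1.87%, interval 1.16 to 2.85%), but only 1 other cell had Top2a and none had both. The cell cycle list in those 21 cells was at 395 CPM, and at 577 CPM in the 1100 cells with neither gene. All 21 cells also had UMIs of the neuron markers (7393 CPM, against 7066 CPM). Mki67 had a UMI in 0.0667% of 3000 cells of class Oligodendrocyte, a class of non-dividing cells, at a median depth of 1037 UMIs against 1195 in Neuron_Dentate. Among other neuron classes it was present in 2 of 285 cells of Neuron_CA1 (0.702%, interval 0.0851 to 2.51%). It was also in 2 of 303 cells of Neuron_CajalRetzius (0.660%) and 1 of 268 cells of Neuron_Subiculum (0.373%). The intervals of Neuron_CA1 and Neuron_Dentate overlapped. None of the 105 interneurons or 47 cells of Neuron_CA2CA3 had a UMI.

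Eomes and Neurod1, which mark successive steps from progenitor to neuron, differed in the classes where they had UMIs. Eomes had 17 UMIs in 11 cells in all, and outside class Neurogenesis 3 cells of Neuron_Subiculum held 6 of them. It had no UMI in Neuron_Dentate (0 of 1122 cells, which allows up to 0.267% of cells with a UMI). Neurod1 had 119 of its 171 positive cells in Neuron_Dentate, where 10.6% of cells (interval 8.86 to 12.6%) had a UMI at 96.1 CPM. Other neuron classes had it as well, with 3 of 47 cells in Neuron_CA2CA3 (6.38%, interval 1.34 to 17.5%). The share was 3.51% in Neuron_CA1, 3.36% in Neuron_Subiculum and 2.64% in Neuron_CajalRetzius, and 0 of 105 interneurons had a UMI. Among glia, Neurod1 was in 3 of 3000 cells in Oligodendrocyte and 0 of 945 cells in Polydendrocyte, which allows up to 0.317% of cells with a UMI. Igfbpl1 had 34 UMIs in all, and no class other than Neurogenesis had more than 3 of them.

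Of all classes, oligodendrocyte precursors held the most cells with Dcx, the usual marker of neuroblasts. By share of cells, Neurogenesis (17.5%), Interneuron and Neuron_Subiculum were higher. In class Polydendrocyte 87 of 945 cells had a UMI (9.21%, interval 7.44 to 11.2%, 104 UMIs), which is 41.4% of all Dcx-positive cells. The share was 0.162% in Microglia_Macrophage and 0.267% in Oligodendrocyte, at median depths of 986 and 1037 UMIs against 1053 in Polydendrocyte. All 87 cells had a UMI of the precursor markers, whose level was 7382 CPM in them and 6927 CPM in the other 858 cells. Neuron markers were at 1040 CPM in the cells with Dcx and at 1084 CPM in those without. Dcx also had UMIs in 15 of 105 interneurons (14.3%), 28 of 268 cells of Neuron_Subiculum (10.4%) and 25 of 1122 cells of Neuron_Dentate (2.23%, interval 1.45 to 3.27%). The 25 dentate cells were at 5049 CPM of the neuroblast list, and dentate cells without Dcx at 5672 CPM. Sox11 had 15 of its 25 positive cells in Polydendrocyte (1.59% of the class).

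Sox4 had UMIs in some glial classes and few in others. It had a UMI in 111 of 945 cells of Polydendrocyte (11.7%, 111 CPM), in 92 of 1852 cells of Microglia_Macrophage (4.97%, 51.5 CPM) and in 10 of 188 ependymal cells (5.32%), against 17 of 1877 astrocytes (0.906%) and 3 of 3000 oligodendrocytes. Among neurons it was present in 12 of 303 cells of Neuron_CajalRetzius (3.96%), 6 of 268 cells of Neuron_Subiculum (2.24%) and 7 of 1122 dentate neurons (0.624%). Precursors with Sox4 were at 2294 CPM of 5 markers of committed oligodendrocyte precursors, and those without at 1605 CPM. Mature oligodendrocyte markers were at 7124 CPM in those with Sox4 and at 3115 CPM in those without. These pairs were not tested.

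The cytoskeletal genes were not restricted to neurons. Tubb3 was highest in Neuron_Subiculum_Entorhinal (296 CPM, 50 of 168 cells), but 298 of 3000 cells of class Oligodendrocyte had a UMI (9.93%, interval 8.89 to 11.1%), more cells than in any other class, against 0.378% of Microglia_Macrophage. Neuron markers were at 254 CPM in those oligodendrocytes and at 282 CPM in oligodendrocytes without Tubb3, and oligodendrocyte markers at 82963 and 84014 CPM. Stmn2 was at 819 CPM in Neuron_Subiculum_Entorhinal, 734 CPM in Neuron_CajalRetzius and 715 CPM in Neuron_Subiculum, and at 65.0 CPM in Neuron_Dentate. Among non-neuronal classes, 258 of 1809 cells of class Endothelial had a UMI (14.3%, interval 12.7 to 16.0%, 174 CPM), against 1.43% of Oligodendrocyte and 1.30% of Microglia_Macrophage. Neuron markers had a UMI in 67 of those 258 cells and in 387 of the other 1551 endothelial cells, and endothelial markers were at 16395 and 16077 CPM.

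The ASO and PBS mice were compared over UMIs summed per mouse, since cells of 1 mouse are not replicates. No member passed the test. In the whole library 7 of the 10 passed the filter on low counts, and Sox11, Igfbpl1 and Eomes did not. With edgeR's quasi-likelihood test 0 of the 7 had an adjusted p under 0.05 and 0 had an unadjusted p under 0.05. Over all genes 0.00714% were called (1 of 14002), and 570 had an unadjusted p under 0.05. In none of the 7 did the ASO and PBS mice separate without overlap, whereas 9.02% of all genes tested did so. DESeq2 and limma voom also called none of the members. In bulk sums of this kind, fewer positive cells and less RNA per cell cannot be told apart. The p-values measure the spread between these 6 mice.

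Top2a, the member with the lowest p in the whole library, was at 7.99, 10.2 and 11.5 CPM in the PBS mice and at 9.21, 6.38 and 3.99 CPM in the ASO mice. ASO mouse 1 lay within the PBS range, so the groups overlapped. The log2 fold change (ASO minus PBS) was -0.54 (standard error 0.32, edgeR adjusted p = 0.999). Mki67 was at 11.3, 5.76 and 9.04 CPM under PBS and at 9.52, 5.10 and 4.49 CPM under ASO (log2 fold change -0.37, standard error 0.35). Dcx was at 11.7, 16.4 and 22.6 CPM under PBS and at 18.4, 19.1 and 16.5 CPM under ASO, where the ASO values lay inside the PBS range (log2 fold change 0.08, standard error 0.24). Neurod1 was at 11.7, 12.4 and 22.6 CPM and at 14.6, 12.8 and 11.97 CPM, so that PBS mouse 3 was the only one set apart, and its log2 fold change was -0.25. Sox4 was at 28.7, 19.5 and 28.4 CPM and at 18.7, 24.2 and 17.0 CPM (log2 fold change -0.35, standard error 0.21). The log2 fold changes of Tubb3 and Stmn2 were 0.26 and 0.19. Sox11, Igfbpl1 and Eomes had 14, 17 and 6 UMIs in all PBS mice and 13, 17 and 11 in all ASO mice. Within the 3 pairs of mice with like mitochondrial ratios, normalised levels of Mki67 were lower under ASO in each pair (log2 differences of -0.23, -0.20 and -0.99). Those of Stmn2 (0.25, 0.19 and 0.13) and Tubb3 (0.03, 0.41 and 0.27) were higher in each. So 3 of the 7 members (42.9%) had 1 direction in all 3 pairs, beside 27.2% of all genes tested. These shares were not tested against each other, and 7 genes are few. With a term for the pairs edgeR gave adjusted p-values of 0.901, 0.875 and 0.862 for Mki67, Stmn2 and Tubb3.

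**Figure D4:**
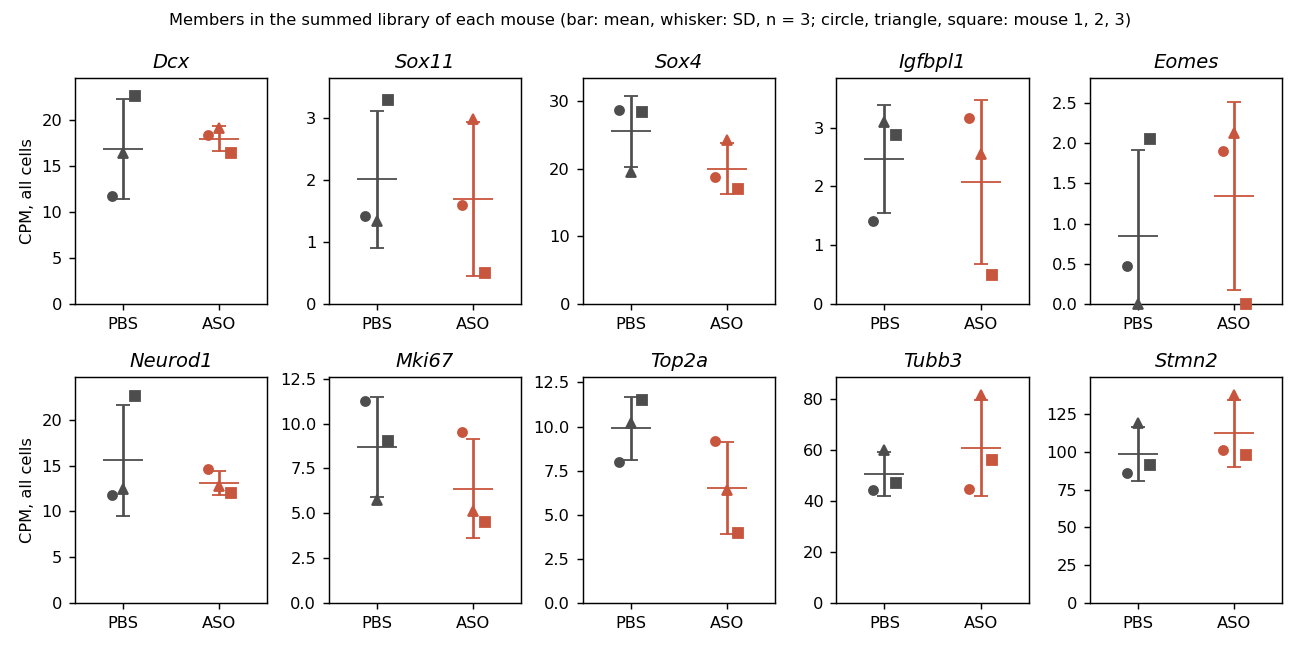
Level of each member in each mouse (CPM of all UMIs, vertical axes), with PBS mice in grey and ASO mice in red, the mean as a bar and the SD as a whisker (n = 3 per group). The ranges of the PBS and ASO points overlap for every member.

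Of the gene lists chosen around the members, none had a gene past the threshold in the whole library or in classes Neuron_Dentate, Microglia_Macrophage or Polydendrocyte. The G2 and M phase list had 23 of 36 genes tested in the whole library, 6 with a higher and 17 with a lower estimate under ASO, and a median log2 fold change of -0.24 where the median over all genes was 0.0028. For the S phase list the figures were 8 higher and 10 lower of 18 tested (median -0.03), for the neuroblast list 17 and 18 of 35 (median -0.0047), for the stem cell list 11 and 8 of 19 (median 0.04), and for the dentate granule neuron list 6 and 13 of 19 (median -0.10).

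Within classes, 10 had at least 20 cells in every mouse, and in 8 of these at least 1 member passed the filter, which gave 13 tests of a member in a class. None had an adjusted p under 0.05, and 2 had an unadjusted p under 0.05. Over all genes, the unadjusted p was under 0.05 for 168 of 5064 in Neuron_Dentate, 302 of 5473 in Microglia_Macrophage and 471 of 7141 in Oligodendrocyte. The share of all genes called by adjusted p was 0% in Neuron_Dentate, Endothelial, Neuron_CA1 and Neuron_CajalRetzius, 0.0365% in Microglia_Macrophage, 0.0447% in Polydendrocyte, 0.188% in Neuron_Subiculum and 0.238% in Oligodendrocyte. In oligodendrocyte precursors, Dcx (log2 fold change 0.05, standard error 0.31), Sox4 (-0.02, standard error 0.29) and Tubb3 (0.09, standard error 0.33) lay near 0. In Neuron_Dentate, Neurod1 was at 0.17 (standard error 0.29) and Tubb3 at -0.41 (standard error 0.44). Tubb3 in oligodendrocytes was at 0.06 and Stmn2 in endothelial cells at 0.13.

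Stmn2 in dentate neurons had the lowest p of these 13. The mice had 17, 32 and 20 Stmn2 UMIs in 169, 185 and 267 dentate cells in the PBS group, and 10, 8 and 3 UMIs in 209, 143 and 149 cells in the ASO group. Levels normalised by edgeR were 108 ± 46.9 CPM under PBS and 40.2 ± 18.1 CPM under ASO (SD over 3 mice per group). Normalised CPM count only UMIs of genes past the filter, so they are not on the scale of the CPM of classes given above. The groups did not overlap, as 8.49% of all genes tested in this class did in either direction. The log2 fold change was -1.35 (standard error 0.41), with an unadjusted p = 0.00212 and an adjusted p = 0.9998 by edgeR, so it did not pass the threshold. The share of dentate cells with Stmn2 was 7.69, 11.9 and 7.12% under PBS and 4.31, 4.90 and 1.34% under ASO. In ASO mouse 3 the share rested on 2 of 149 dentate cells, and 2 of 404 oligodendrocytes of that mouse (0.495%) had a Stmn2 UMI. Beside it, the summed level of 6 neuron markers in the same dentate cells ranged from 7236 to 7553 CPM under PBS and from 6350 to 6936 CPM under ASO, that of 6 oligodendrocyte markers from 475 to 715 and from 742 to 820 CPM, and that of 7 microglia markers from 38.3 to 55.3 and from 57.7 to 82.7 CPM, and all of these markers had UMIs there. The G2 and M phase list ranged from 600 to 623 and from 459 to 568 CPM. These are only some of the lists that were summed by mouse in this class, and in each list shown the PBS and ASO ranges did not overlap. The other lists are not given, so those shown do not describe how the lists behaved as a whole. The part of these markers in the Stmn2 values was not tested.

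Sox4 in microglia and macrophages was at 95.4, 48.1 and 75.9 normalised CPM under PBS and at 44.9, 59.3 and 28.0 normalised CPM under ASO. The groups overlapped, and the log2 fold change was -0.78 (standard error 0.33, edgeR adjusted p = 0.822).

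The share of cells with a UMI was compared for 42 pairs of a member and a class, or all cells together, that had at least 10 positive cells, by exact permutation, two-sided, over all 20 assignments of the mice. The smallest p this design allows is 0.1, so no pair could pass the threshold, and after Benjamini-Hochberg adjustment the lowest p was 0.933. Groups did not overlap in 4 of the 42 pairs (9.52%), while 9.89% of the pairs of any gene and the same classes did not overlap, so the members' share was near that of all genes. These were Stmn2 in Neuron_Dentate, given above, Dcx in Neuron_Dentate, Stmn2 in Neuron_CA1 and Tubb3 in Astrocyte. Dcx was present in 2.96, 2.70 and 2.62% of dentate cells under PBS and in 1.91, 2.10 and 0.671% under ASO, which rests on 5, 5 and 7 against 4, 3 and 1 cells. Stmn2 was present in 44.4, 33.3 and 37.5% of CA1 neurons under PBS and in 45.2, 55.4 and 45.2% under ASO, the opposite direction to dentate neurons. The nearest PBS and ASO mice lay at 44.4 and 45.2%. By level the groups overlapped in CA1 neurons, with 1365, 764 and 668 normalised CPM under PBS and 967, 1299 and 1390 normalised CPM under ASO. Over the UMIs of all genes, Stmn2 was at 532 CPM in this class. Tubb3 in astrocytes was at or under 1.44% of cells in every mouse. Neurod1 in dentate neurons was at 10.1, 9.19 and 10.5% under PBS and at 13.9, 9.09 and 10.1% under ASO, and Dcx in Polydendrocyte at 8.39, 7.94 and 9.91% and at 8.43, 9.39 and 11.8%, with overlap in both.

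**Figure D5:**
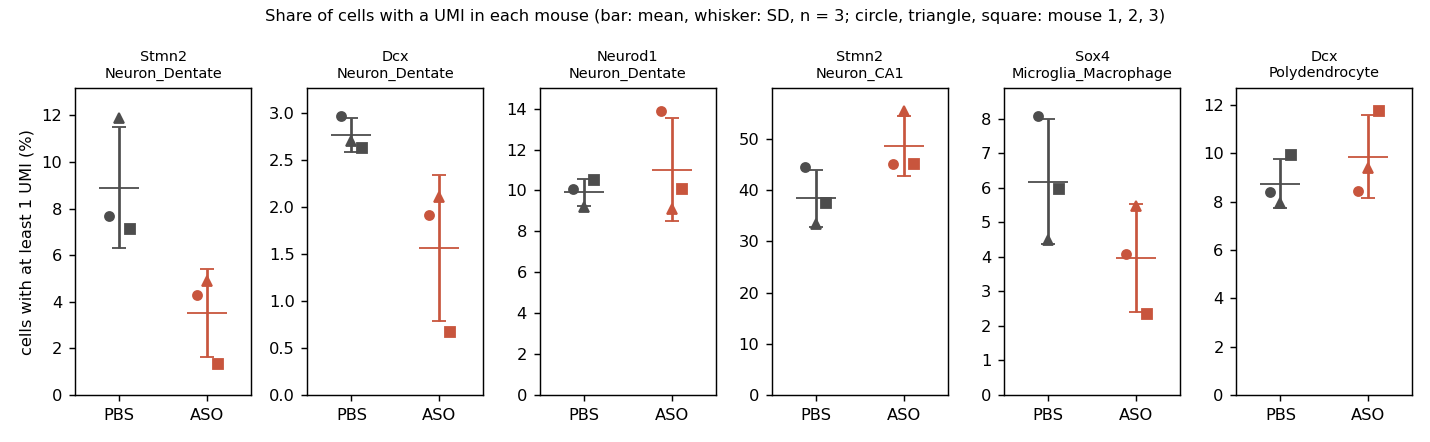
Share of cells with at least 1 UMI (percent, vertical axes) in each mouse for 6 pairs of a member and a class, with the mean as a bar and the SD as a whisker (n = 3 per group). PBS and ASO mice do not overlap for Stmn2 and Dcx in Neuron_Dentate and for Stmn2 in Neuron_CA1, and they overlap in the other panels.

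Class Neurogenesis made up 0.329, 0.0994 and 0.616% of cells in the PBS mice and 0.283, 0.429 and 0.114% in the ASO mice. The means were 0.348 ± 0.259% and 0.275 ± 0.157% (SD, n = 3 each), a difference of -0.0728 percentage points that was smaller than the spread between mice (exact permutation test, p = 0.7). Without PBS mouse 3 the difference was 0.0611 and without ASO mouse 3 it was 0.00781 percentage points, so its sign rested on single mice. Split by kind, cells with Mki67 or Top2a numbered 5, 1 and 7 under PBS and 4, 3 and 1 under ASO (exact permutation test, p = 0.4). Cells with a neuroblast gene numbered 1, 1 and 5 under PBS and 3, 6 and 0 under ASO (exact permutation test, p = 0.9). Those with a precursor marker among the first kind numbered 4, 1 and 5 under PBS and 1, 2 and 1 under ASO. There were 0 to 7 cells of a kind per mouse, and with 3 mice per group no difference between the treatments in these counts could pass the threshold in this test.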

How the data were processed

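UMI counts per gene and cell were deposited by the authors without normalisation, with the mouse and a cell class in each column name. The submitters' processing notes name bcl2fastq, STAR 2.5.0c and the builds mm10 and GRCm38. The program that counted UMIs and its annotation are not given in these sources. Every count was a whole number, and the cells held 569 to 1999 UMIs and at least 501 genes. Scrublet (scanpy 1.11.5) was run on each mouse, and the 207 cells called doublets (1.61%) were removed. CPM are UMIs of a gene per 1000000 UMIs of the cells named. Normalised CPM are scaled by TMM and count only UMIs of the genes that passed the filter on low counts in that fit. They are therefore on another scale than CPM and differ in scale between classes. UMIs were added up within each mouse, over all cells and over classes with at least 20 cells in every mouse. Groups were then compared by the edgeR 4.0.16 quasi-likelihood test in R 4.3.3 (filterByExpr, TMM and otherwise defaults, two-sided, Benjamini-Hochberg adjustment over all genes tested, threshold 0.05), which was tested on simulated data. Depth per mouse, 2005768 to 3150332 UMIs, left 3 members under the filter on low counts. Shares of cells were compared by exact permutation tests.

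All members were named. From each list at most 4 genes with most UMIs in class Neurogenesis were named, beside 10 genes with the highest fold in that class and the nearest in likeness of 4 members. The members and lists were chosen with earlier results of these data known. Replicate numbers name the mice, and the labels do not pair them. The pairs with like mitochondrial ratios were the PBS and ASO mice of the same replicate number. Alternative settings were the size factors of DESeq2, its own test (1.42.0), limma voom (3.58.1), testing without a filter, keeping doublets, a mitochondrial limit of 10%, thinning the mice to the lowest UMI total, a term for the 3 pairs of mice with like mitochondrial transcript ratios, and leaving out each mouse.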

Additional observations from a re-analysis of the deposited data

Results flagged for a closer look

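The share of cells with a Stmn2 UMI lay lower in every ASO mouse than in every PBS mouse in Neuron_Dentate, and higher in every ASO mouse than in every PBS mouse in Neuron_CA1. The dentate share minus the CA1 share was -36.8, -21.4 and -30.4 percentage points under PBS and -40.9, -50.5 and -43.8 under ASO. The group means of this difference were -15.5 percentage points apart (ASO minus PBS). Both classes were picked because their shares did not overlap, in opposite directions, so the separation of this contrast follows from that choice and the difference between the classes was not tested. By level, Stmn2 in Neuron_CA1 overlapped between the groups (1365, 764 and 668 normalised CPM under PBS, 967, 1299 and 1390 under ASO). In the edgeR fits of summed counts the log2 fold changes of Stmn2 were -1.35 in Neuron_Dentate and 0.37 in Neuron_CA1, neither past the threshold.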

How the results depend on the processing

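Under the 14 alternatives to the edgeR fits no member was called in the whole library or in any class, and the lowest adjusted p of a member was 0.150, for Stmn2 in Neuron_Dentate with a term for the 3 pairs of mice. Its log2 fold change ranged from -1.89 to -0.96, and without ASO mouse 3 it was -1.06. Of the 20 fold changes of a member, 10 changed sign under some alternative. With 1 mouse left out, the ranges were -0.13 to 0.35 for Dcx, -0.42 to 0.13 for Neurod1 and -0.013 to 0.45 for Tubb3 in the whole library, -0.094 to 0.21 for Dcx, -0.12 to 0.088 for Sox4 and -0.06 to 0.18 for Tubb3 in Polydendrocyte, -0.079 to 0.33 for Neurod1 in Neuron_Dentate, -0.013 to 0.31 for Stmn2 in Endothelial, -0.10 to 0.28 for Stmn2 in Neuron_CajalRetzius and -0.39 to 0.34 for Tubb3 in Oligodendrocyte. Signs also turned for Stmn2 in Neuron_CajalRetzius without a filter (-0.050), for Neurod1 in Neuron_Dentate with totals thinned (-0.062), for Tubb3 in Oligodendrocyte with limma voom (-0.0029), a mitochondrial limit of 10% (-0.010) and totals thinned (-0.00055), and for Sox4 in Polydendrocyte with doublets kept (0.011), totals thinned (0.24) and the term for pairs (0.028).

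The number of pairs of a member and a class whose shares of positive cells did not overlap was 4. It was 1 when a positive cell needed 2 UMIs, where 5.32% of pairs of any gene and class did not overlap. It was 4 to 13 with 1 mouse left out (13 without PBS mouse 2), where 19.2 to 21.1% of pairs of any gene and class did not overlap, against 9.89% with all mice. The difference in the share of class Neurogenesis was -0.0728 percentage points of all cells. Taken as a percentage of Neuron_Dentate cells it was 0.654 percentage points, on another denominator, so only the signs can be set side by side. Of all cells, it was 0.04996 percentage points for cells of any class with at least 3 members. It was 0.0169 percentage points for cells with a neuroblast gene only, an alternative added after the data were seen. With 1 mouse left out, the difference for class Neurogenesis ranged from -0.197 to 0.0611 percentage points of all cells. The cause was not tested. The labels give no numbers that pair the mice, so the term for pairs rests on the mitochondrial ratios alone. Depth limits Sox11, Igfbpl1 and Eomes, which had 27, 34 and 17 UMIs in all and were tested only without a filter.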
